A study of Mus musculus with 2 samples.

Results

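Semaphorins, plexins and neuropilins were followed in hippocampal Cajal-Retzius (CR) cells of mice with a conditional knockout of Capicua (*Cic*) and of their controls. All genes whose symbol was *Sema3* to *Sema7* with a letter from a to g, *Plxna* to *Plxnd* with a number, or *Nrp1* or *Nrp2* were taken. This gave 31 genes (20 semaphorins, 9 plexins and 2 neuropilins) of the 32285 genes listed in the matrices. They were read in barcodes with at least 2000 UMIs (unique molecular identifiers, 1 for each RNA molecule captured) and at least 5 UMIs of *Reln*, which encodes the secreted protein by which CR cells are known. This left 1003 cells of the control library and 390 of the knockout library. All 31 members had at least 1 UMI, and 16 had at least 100 UMIs over both libraries.

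Semaphorins are guidance cues that steer axons, dendrites and migrating cells. Class 3 semaphorins are secreted, most of the other vertebrate classes are anchored in the membrane, and class 7 is held there by a lipid. Plexins are their receptors, which act on small GTPases and the cytoskeleton inside the cell. Most class 3 semaphorins bind a neuropilin, which lacks a signalling domain of its own and pairs with a plexin A, whereas Sema3e binds plexin D1 directly. Class 6 semaphorins such as Sema6a bind plexins A2 and A4 without a neuropilin, and these pairs are known for laying out layered projections of the hippocampus.

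Each library pooled 4 mice at postnatal day 14, all littermates. The control mice had the genotype ΔNp73-Cre; Cic flox/+; tdT (3 males and 1 female), and in the knockout mice (2 males and 2 females) *Cic* was flox/flox on the same background. Control cells thus carried 1 floxed *Cic* allele open to the same Cre, which need not act in every cell, and both groups carried the Cre driver, which is active in CR cell progenitors, and the tdTomato (tdT) reporter. The paper reports that CIC was lost from most but not all hippocampal CR cells of this knockout line, so some knockout cells may have kept it. Live tdT+ cells of the hippocampus were sorted and profiled by 3' single-cell RNA-sequencing. With 1 library per genotype, no difference between genotypes had a replicate check, and it could not be told apart from a difference between 2 libraries or 2 pools of mice.

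The cells had a median of 6224 UMIs (2012 to 31769) in the control and 6664 UMIs (2769 to 33453) in the knockout, and the libraries shared 0 cell barcodes. All 10 CR markers checked, of which *Reln* had chosen the cells, had a UMI in at least 25% of cells of both libraries. Of the markers of other cell types, *Cspg4* and *Rgs5* reached that share. Levels are given as counts per 1000000 UMIs (CPM) outside mitochondrial and ribosomal protein genes, with exact 95% Poisson intervals in parentheses that cover counting error only. Since a 3' library counts each captured molecule once, CPM of different genes were compared without division by length. Whether introns were counted is not known, and an effect of gene length on the levels was not tested. *Cic* itself stood at 58.9 CPM in control cells and 51.3 CPM in knockout cells, and its 3' UMIs need not cross the deleted stretch. *Etv4* and *Etv5*, which Capicua is known to repress, stood at 1.97 and 15 CPM in the control and at 70.9 CPM each in the knockout, and 41.5% of knockout cells had a UMI of either gene against 8.67% of control cells.

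The sequences before the start sites are shown for the 3 members that differed most between the libraries among those with at least 100 UMIs. Of the 31 members, 26 matched RefSeq promoters of build GRCm38.p6, with 37 start sites. Each window searched held 250 bases before and 50 bases after the start, and the 250 bases before the start are printed 5' to 3' on the strand of the gene. They lie at chr15:32244563-32244812 (plus strand) for *Sema5a*, chr17:56140344-56140593 (minus strand, the first of 2 listed starts) for *Sema6b* and chr1:194619579-194619828 (plus strand) for *Plxna2*.
Sema5a: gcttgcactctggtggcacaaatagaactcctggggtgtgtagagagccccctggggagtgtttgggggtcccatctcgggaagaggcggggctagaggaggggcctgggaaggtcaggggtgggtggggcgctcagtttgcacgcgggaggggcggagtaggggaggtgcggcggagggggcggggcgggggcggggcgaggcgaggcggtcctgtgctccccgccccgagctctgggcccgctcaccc
Sema6b: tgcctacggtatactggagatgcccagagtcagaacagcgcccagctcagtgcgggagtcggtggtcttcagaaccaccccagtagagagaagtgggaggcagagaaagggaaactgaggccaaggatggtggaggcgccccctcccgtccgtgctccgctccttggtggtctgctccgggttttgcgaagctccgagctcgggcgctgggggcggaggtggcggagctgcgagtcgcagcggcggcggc
Plxna2: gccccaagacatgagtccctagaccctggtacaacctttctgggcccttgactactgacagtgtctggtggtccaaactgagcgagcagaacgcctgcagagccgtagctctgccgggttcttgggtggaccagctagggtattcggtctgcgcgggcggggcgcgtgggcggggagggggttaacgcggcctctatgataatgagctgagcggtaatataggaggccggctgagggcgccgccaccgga
Capitals were reserved for the octamers that Capicua is known to bind (TGAATGAA, TGAATGGA, TCAATGAA and TCAATGGA) and for CCGGAAGT, a form of the site of ETS factors such as Etv4 and Etv5, each on both strands. The last was chosen after the values were seen. None of the 37 member windows held any of these letters, so no base is in capitals. Over all 32851 promoter windows, 3.84% held a Capicua octamer and 3.89% the ETS form. The windows of the 3 printed members are GC-rich, with 71.3%, 69% and 64.7% G or C for *Sema5a*, *Sema6b* and *Plxna2*. The median over all windows was 52.7%. The absence of these letters from the windows says nothing of binding elsewhere.

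Together the 31 genes took 0.126% (0.124 to 0.129; Clopper-Pearson) of UMIs in control cells and 0.140% (0.135 to 0.144) in knockout cells. Semaphorins held 59.2% of the members' control UMIs, plexins 40.0% and neuropilins 0.780%. Nearly every cell had a UMI of some member, at 99.6% of control and 99.7% of knockout cells.

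Among the ligands, class 6 led. *Sema6a*, a membrane-anchored ligand of plexins A2 and A4, had the highest level of all members, at 344.9 CPM (330.9 to 359) in control cells and 389.7 CPM (367 to 414) in knockout cells. It had a UMI in 73.9% of control and 81.0% of knockout cells, against 0.417% and 0.234% of droplets of 20 to 100 UMIs, which hold free RNA and no cell. Such droplets held a mean of 86.3 UMIs in the control and 45.5 in the knockout, so their shares are not at equal depth. In CPM, *Sema6a* stood at 57.4 and 65.8 in them. After every cell was thinned to 2000 UMIs, these shares of cells were 44.8% and 50%. The other class 6 genes stood lower in the control, with *Sema6d* at 59.98 CPM, *Sema6c* at 48.2 CPM and *Sema6b* at 23.6 CPM. The levels in the knockout were 66.5 CPM, 41.6 CPM and 42.3 CPM in the same order.

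Class 4 semaphorins, which are membrane-bound and signal mostly through plexins B and D1, came next. *Sema4g* was the highest of them at 88.8 CPM (81.7 to 96.3) in control cells and 95.5 CPM (84.3 to 108) in knockout cells. Its level in the droplets without cells was as high, at 91.3 CPM (79.1 to 105) and 102 CPM (90.7 to 114). As a droplet holds few molecules, its free RNA came to 6.87 UMIs over all control cells, against 586 *Sema4g* UMIs counted in them. The 6.87 may be too low, since fuller droplets were left out and control droplets had a mean of 86.3 UMIs. *Sema4d*, the ligand of plexin B1, stood at 54.2 CPM and 63.3 CPM in the control and knockout, and 1 control cell held 28 of its 358 UMIs. *Sema4b* (35.9 and 39.1 CPM), *Sema4f* (21.5 and 25.3 CPM), *Sema4c* (7.73 and 6.15 CPM) and *Sema4a* (4.24 and 4.34 CPM) followed.

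Class 5 semaphorins carry thrombospondin repeats. *Sema5a* stood at 46.1 CPM (41.0 to 51.5) in control cells and 103 CPM (91.4 to 116) in knockout cells, and *Sema5b* at 4.09 and 8.32 CPM. Secreted class 3 semaphorins were scarce. All 7 together had 55 UMIs in the control and 53 in the knockout, or 8.33 and 19.2 CPM. *Sema3e*, the ligand of plexin D1, had 21 and 31 of these UMIs and *Sema3c* 15 and 14. *Sema3d*, *Sema3f*, *Sema3a*, *Sema3b* and *Sema3g* had at most 7 UMIs in either library. *Sema7a* had 1 UMI in the control and 0 in the knockout, where a count of 0 allows a level of up to 1.08 CPM.

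Of the receptors, *Plxna4* was the highest, at 211 CPM (200.4 to 223) in control cells and 185 CPM (169 to 202) in knockout cells. *Plxnd1*, the receptor of Sema3e, was second at 151 CPM (142 to 161) and 159 CPM (145 to 175). Both were read in more than 50% of cells, with *Plxna4* in 62.8% of control and 59.0% of knockout cells and *Plxnd1* in 56.5% and 58.7%. The other plexins A stood at 33.5 CPM (*Plxna3*), 29.99 CPM (*Plxna2*) and 12.9 CPM (*Plxna1*) in the control and at 37.6, 17.4 and 15.6 CPM in the knockout. Plexins B, the receptors of class 4 semaphorins, were led by *Plxnb2* at 41.5 and 31.8 CPM, with *Plxnb1* at 17.1 and 23.9 CPM and *Plxnb3* at 1 UMI in the control and 0 in the knockout. *Plxnc1*, which binds Sema7a, stood at 7.88 and 11.6 CPM.

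The neuropilins were near the low end. *Nrp2*, the co-receptor of Sema3f, had 39 UMIs in the control (5.91 CPM) and 23 in the knockout (8.32 CPM), and *Nrp1*, the co-receptor of Sema3a, had 26 (3.94 CPM) and 9 (3.25 CPM). A UMI of either was found in 5.38% of control and 6.41% of knockout cells. In the order of control levels, the intervals of *Sema6a*, *Plxna4*, *Plxnd1*, *Sema4g* and *Sema6d* did not overlap from each gene to the next, and from *Sema6d* down every interval overlapped the next. Levels fell by more than an order of magnitude from *Sema6a* to the neuropilins, as the plot of levels by library shows.

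**Figure D1:**
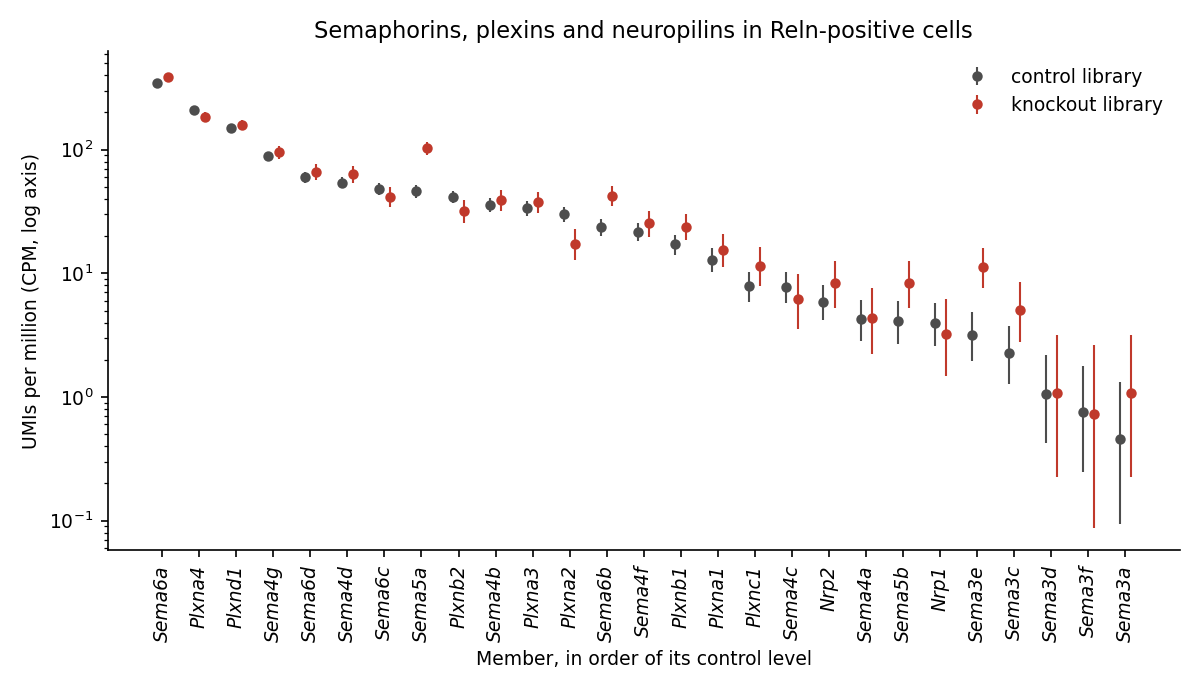
Levels of the 27 members with a UMI in both libraries, in CPM on a log axis, in the control (grey) and knockout (red) library, with exact 95% intervals that cover counting error only. *Sema6a*, *Plxna4* and *Plxnd1* lead in both libraries, and the secreted class 3 genes and the neuropilins stand at the low end.

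*Sema6a* and the gene of its receptor *Plxna4* were often read in the same cell, in 45.8% of control cells (42.7 to 48.9; Clopper-Pearson) and 48.2% of knockout cells (43.2 to 53.3). The product of the genes' own shares was 46.4% in the control and 47.8% in the knockout, inside these intervals. A neuropilin and a plexin A were read together in 3.89% of control and 4.87% of knockout cells, with products of 4.10% and 4.67%. *Sema3e* and *Plxnd1* were read together in 0.997% of control and 3.08% of knockout cells, with products of 0.958% and 3.46%.

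The comparison of the genotypes asks which members differ when *Cic* is deleted from CR cells. *Sema5a* and *Sema6b* were higher and *Plxna2* was lower in the knockout library by at least 1.5-fold, among the 16 members with at least 100 UMIs. These 2 higher members compare with 258 of all 9442 genes with as many UMIs (2.73%) past this limit upwards, and the 1 lower member with 157 of them (1.66%) downwards. The median ratio of the 16 members was 1.12 and that of all genes 1.004. Of the 16, 12 had a ratio above 1 and 4 below, and for 9 the interval of the ratio held 1. The same counts over all genes are not given here, so these describe the members alone. The ratios are set out gene by gene in the plot of knockout over control, in which *Sema5a* stands apart at the top.

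**Figure D2:**
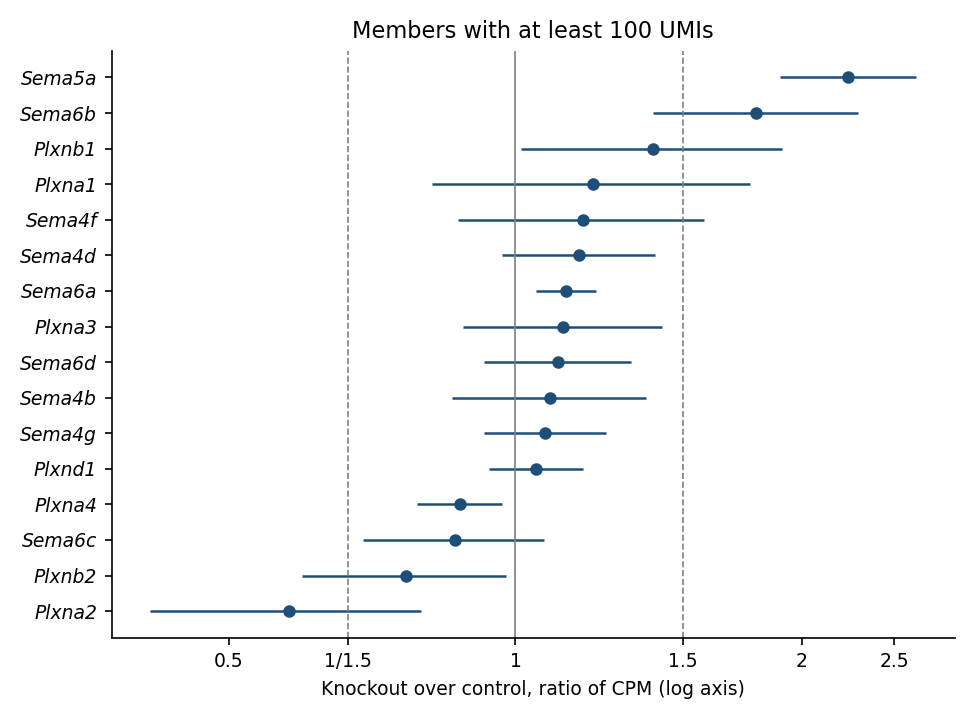
Ratio of knockout over control CPM (log axis) of the 16 members with at least 100 UMIs, with exact 95% intervals that cover counting error only, the value of 1 as a solid line and the 1.5-fold limits as dashed lines. *Sema5a* and *Sema6b* lie above the upper limit, *Plxna2* lies below the lower one, and the other 13 lie between them.

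*Sema5a*, a membrane-anchored ligand with both attractive and repulsive effects on axons, showed the largest difference of the 16. It had 304 UMIs in 1003 control cells and 285 UMIs in 390 knockout cells. The gene spans chr15:32244810-32696341 on the plus strand (GENCODE M21 on GRCm38). The ratio of CPM was 2.24 (1.90 to 2.64), rank 34 from the top of 9442 genes. A UMI of *Sema5a* was found in 18.5% of control and 38.2% of knockout cells, against 0.0895% and 0.107% of droplets, and in 7.88% (6.29 to 9.72) and 16.9% (13.3 to 21.02) of cells thinned to 2000 UMIs. The droplets of the knockout held fewer UMIs, and in CPM *Sema5a* stood at 12.85 in control and 29.95 in knockout droplets. If each cell held the free RNA of a mean droplet, that came to 0.967 and 0.468 *Sema5a* UMIs over all control and knockout cells. Droplets above 100 UMIs were left out, so these may be too low. Without the 5 cells of each library with the most *Sema5a* UMIs the ratio was 2.15. It was 2.10 (1.57 to 2.81) in female and 2.07 (1.66 to 2.58) in male cells.

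*Sema6b* followed with 156 UMIs in the control (23.6 CPM) and 117 in the knockout (42.3 CPM). The gene lies at chr17:56123085-56140343 on the minus strand. Its ratio was 1.79 (1.40 to 2.29), rank 90 from the top, with 1.64 (1.07 to 2.52) in female and 1.72 (1.22 to 2.40) in male cells. In thinned cells the ratio was 1.16, and a *Sema6b* UMI was found in 5.88% (4.51 to 7.52) of control and 6.41% (4.19 to 9.32) of knockout cells, so the difference was not detectable at that depth.

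*Plxna2*, which like *Plxna4* encodes a receptor of Sema6a, had 198 UMIs in the control (29.99 CPM) and 48 in the knockout (17.4 CPM). The gene lies at chr1:194618218-194816869 on the plus strand in GENCODE M21. The bases printed above were taken before a later RefSeq start and fall within it, so those before the GENCODE start were not searched. Its ratio was 0.579 (0.413 to 0.797), rank 46 from the bottom, with 0.504 (0.310 to 0.785) in male cells and 0.696 (0.391 to 1.21) in female cells. *Plxna4* was lower by less, at a ratio of 0.874 (0.789 to 0.968), rank 1770 from the bottom of 9442 genes. *Sema6a* was higher at 1.13 (1.05 to 1.22), rank 2244 from the top. In female cells the intervals of both held 1, at 0.957 (0.802 to 1.14) for *Plxna4* and 1.01 (0.891 to 1.15) for *Sema6a*. The ratios in male cells were 0.866 (0.753 to 0.993) and 1.21 (1.10 to 1.33). *Plxnb2* (0.767, 0.596 to 0.978) and *Plxnb1* (1.39, 1.01 to 1.91) had intervals on either side of 1.

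Among the 15 members under 100 UMIs, *Sema3e* had the largest ratio with an interval above 1, from 21 UMIs (3.18 CPM) in the control to 31 UMIs (11.2 CPM) in the knockout, a ratio of 3.52 (1.961 to 6.45). These UMIs lay in 17 control and 23 knockout cells. In female cells it had 2 and 19 UMIs (ratio 11.1, 2.68 to 98.5) and in male cells 15 and 12 (2.63, 1.12 to 6.02). *Sema5b* had 27 and 23 UMIs (4.09 and 8.32 CPM), a ratio of 2.03 (1.11 to 3.68). By class, semaphorins 5 had a ratio of 2.22 (1.90 to 2.60) and semaphorins 3 of 2.30 (1.55 to 3.42), against 1.13 (1.07 to 1.21) for semaphorins 6, 1.1 (1 to 1.21) for semaphorins 4 and 0.887 (0.813 to 0.968) for plexins A. *Sema5a* alone held 304 of the 331 control and 285 of the 308 knockout UMIs of class 5, so that ratio is mostly its own. *Sema3e* held 21 of 55 control and 31 of 53 knockout UMIs of class 3.

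Within the knockout library, a UMI of *Etv4* or *Etv5* set apart 162 of the 390 cells, a split chosen after the data were seen. *Sema5a* stood at 138 CPM in the cells with such a UMI and at 75.5 CPM in the 228 without, a ratio of 1.82 (1.43 to 2.33). Both values lay above the 46.1 CPM of all control cells, with ratios to them of 2.99 (2.46 to 3.62) and 1.64 (1.31 to 2.04). In the control, the 87 cells with a UMI of either factor had 40.4 CPM, on 27 UMIs, and the other 916 had 46.7 CPM, a ratio of 0.866 (0.561 to 1.29). The control cells held 13 *Etv4* and 99 *Etv5* UMIs and the knockout cells 196 of each, so the split need not mark alike cells. Whether it differed between the libraries was not tested, and values over all genes are not given for it.

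*Sema6b* stood at 55.4 CPM in knockout cells with an *Etv4* or *Etv5* UMI, at 31.9 CPM in those without and at 23.6 CPM in all control cells. Its ratio to all control cells was 2.34 (1.74 to 3.13) with such a UMI, and without one it was 1.35 with an interval that held 1 (0.958 to 1.87). The ratio between the knockout groups was 1.74 (1.19 to 2.56). *Plxna2* stood at 12.2 CPM with and 21.5 CPM without such a UMI (ratio 0.569, 0.287 to 1.08). *Plxna1*, which had no difference of 1.5-fold between the libraries, stood at 7.33 CPM with and 22.1 CPM without, a ratio of 0.331 (0.140 to 0.705) on 9 and 34 UMIs. The same split of control cells gave *Plxna2* a ratio of 0.676 (0.3626 to 1.164). It gave *Sema6b* one of 0.808 (0.42 to 1.426) and *Plxna1* one of 0.798 (0.3105 to 1.723). Cells with a UMI were deeper, at a median of 7266 UMIs against 6210 in the knockout, and CPM are relative to that depth.

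**Figure D3:**
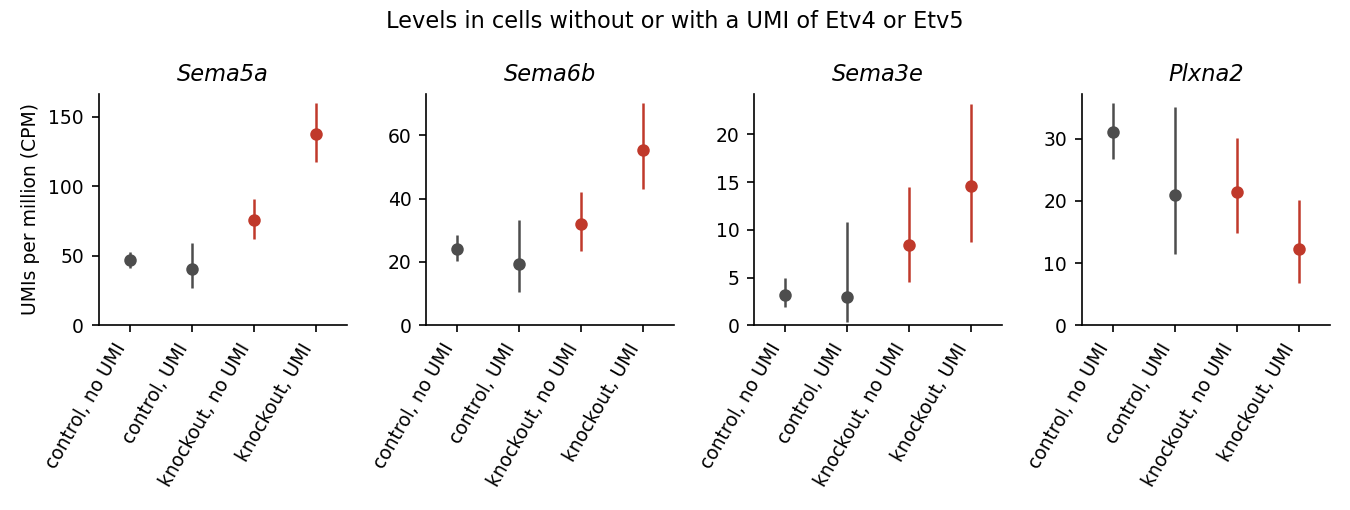
Levels (CPM, axes from 0) of *Sema5a*, *Sema6b*, *Sema3e* and *Plxna2* in control (grey) and knockout (red) cells without or with a UMI of *Etv4* or *Etv5*, with exact 95% intervals that cover counting error only. *Sema5a* is lowest in both control groups, at 46.7 and 40.4 CPM, and highest in knockout cells with such a UMI, at 138 CPM.

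Of the other genes of the pathway, a list of 39 co-receptors, partners and signalling genes was read beside the members. Of these, 28 had at least 100 UMIs, and their median ratio was 0.968. By at least 1.5-fold, 1 was higher and 0 were lower, where 2.73% of all genes were higher and 1.66% lower. The 1 was *Nrcam*, an adhesion molecule that acts with Nrp2 as a receptor of Sema3f, with 41 UMIs in the control (6.21 CPM) and 101 in the knockout (36.5 CPM), a ratio of 5.88 (4.05 to 8.67). Its partner *Nrp2* had a ratio of 1.41 (0.803 to 2.42), and *L1cam*, the adhesion partner of Nrp1, one of 1.06 (0.943 to 1.19).

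The comparisons by *Cck*, *Grik1* and *Chst8* or *Alkal2* ask whether the members differ between cells with and without a UMI of these genes, which encode a neuropeptide, a kainate receptor subunit, a sulfotransferase and a receptor tyrosine kinase ligand. UMIs were summed over positive and negative cells of each library and tested with edgeR's quasi-likelihood test with library as a term and Benjamini-Hochberg adjustment over all genes with at least 100 UMIs. Each test rests on 2 libraries with 1 residual degree of freedom per gene, and edgeR shared the estimate of spread over genes. This spread is that of the contrast between 2 libraries, which are also the 2 genotypes, and not that between mice. Positive cells numbered 324 and 110 for *Cck*, 194 and 70 for *Grik1* and 232 and 91 for *Chst8* or *Alkal2*, in the control and knockout. They had a higher median depth than negative cells in each comparison. For *Chst8* or *Alkal2* it was 6720.5 against 6059 UMIs in the control and 7869 against 6361 in the knockout. Some cells counted for more than 1 gene, as 21.6% of *Cck*-positive control cells were also *Chst8* or *Alkal2*-positive.

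In *Cck*-positive cells, *Plxna4* and *Plxna2* were higher and *Sema6a* was lower, while *Plxna1* and *Plxna3* were not called. *Plxna4* stood at 275 CPM in positive and 178 CPM in negative cells of the control, and at 218 and 172 CPM in the knockout. Its log2 fold change was 0.53 ± 0.09 (SE; edgeR adjusted p = 1.697e-06). *Plxna2* stood at 42.0 and 23.7 CPM in the control and at 26.4 and 13.7 CPM in the knockout, a log2 fold change of 0.86 ± 0.23 (edgeR adjusted p = 0.00458). Both genes were thus higher in positive cells of either library.

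*Sema5a* was also higher in *Cck*-positive cells (log2 fold change 0.58 ± 0.15, edgeR adjusted p = 0.00296). It stood at 65.1 against 35.9 CPM in the control, a ratio of 1.81 (1.44 to 2.28), and at 117 against 97.4 CPM in the knockout, where the interval of the ratio held 1 (1.2, 0.926 to 1.55). Whether the 2 libraries differed in this was not tested. The call was lost in 4 of 9 other settings, with an adjusted p of 0.0542 from 3000 UMIs per cell and of 0.065 from 10 *Reln* UMIs (edgeR). *Sema6a* stood at 273 against 383 CPM in the control and at 322 against 417 CPM in the knockout, a log2 fold change of -0.43 ± 0.08 (edgeR adjusted p = 7.417e-06). Cells in which nuclear respiratory chain genes took at least 1.5% of UMIs made up 10.8% of *Cck*-positive and 7.95% of negative control cells, and *Sema6a* was lower in such cells (213 against 368 CPM). Without them the log2 fold change was -0.35 (edgeR adjusted p = 0.00346).

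The 3 members higher in *Cck*-positive cells compare with 3.66% of 9441 genes called higher, and the 1 lower member with 2.86% called lower. Among those that did not pass, the largest differences were those of *Sema4d* (log2 fold change -0.48, adjusted p = 0.0656, edgeR) and *Sema6c* (-0.37, adjusted p = 0.295). The median over the 16 members was -0.09, against -0.0022 over all genes. DESeq2 gave 0 of 16 members an adjusted p under 0.05 and called 75 genes in all, but 12 of the 16 received no adjusted p. It gave *Sema6a* an adjusted p of 0.0888 and *Plxna4* one of 0.125, none to *Plxna2* and *Sema5a*, and 2 members an unadjusted p under 0.05. Thinned to 2000 UMIs, 10 members could be tested and *Plxna4* passed (log2 fold change 0.78, edgeR adjusted p = 0.00211).

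In *Grik1*-positive cells, *Sema6a* was lower with an adjusted p close to the threshold. It stood at 281 against 362 CPM in the control and at 313 against 408 CPM in the knockout (log2 fold change -0.35 ± 0.10, edgeR adjusted p = 0.0499). This was 1 lower member of 16 where 0.784% of genes were called lower, and 0 members were called higher where 1.03% of genes were. By edgeR's unadjusted p under 0.05, 1 member was higher and 3 were lower, where 860 of 9441 genes had such a p in either direction. The adjusted p went above 0.05 in 6 of 10 other settings, among them DESeq2, so this call rested on the settings. *Plxna2* had the largest log2 fold change, -1.01 ± 0.32 (edgeR adjusted p = 0.137), with 14.5 against 34.1 CPM in the control and 13.1 against 18.4 CPM in the knockout. *Sema6d* had one of 0.52 ± 0.18 (edgeR adjusted p = 0.216), and *Sema4f* and *Sema4d* had 0.42 and 0.31. *Plxna4* had -0.33 (edgeR adjusted p = 0.259).

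In *Chst8* or *Alkal2*-positive cells, *Sema6a* was higher, the opposite side to that in the cells positive for the other markers. It stood at 446 against 312 CPM in the control and at 447 against 368 CPM in the knockout, a log2 fold change of 0.45 ± 0.09 (edgeR adjusted p = 0.000123). In thinned cells the log2 fold change was 0.50 (edgeR adjusted p = 0.166), and DESeq2 gave an adjusted p of 0.0939. Of cells positive at full depth, 53.88% in the control and 46.15% in the knockout had a *Sema6a* UMI after thinning. Negative cells had 42.02% and 51.17%, so in the knockout this share was not higher in positive cells. *Sema6a* was 1 of 16 members called higher where 2.45% of 9440 genes were, and 0 members were called lower where 1.01% of genes were. By edgeR's unadjusted p under 0.05, 2 members were higher and 4 lower, where 1175 of 9440 genes had such a p in either direction. *Plxna1* had the largest log2 fold change at 0.83 ± 0.33 (edgeR adjusted p = 0.178), with 15.3 against 12.1 CPM in the control and 29.0 against 10.5 CPM in the knockout. Of those lower, *Plxnb2* had -0.58, *Sema4b* -0.46 and *Sema5a* -0.40, with edgeR adjusted p of 0.189, 0.383 and 0.300. *Sema6b* had 0.22. DESeq2 gave 0 members an adjusted p under 0.05 in either of these comparisons and 1 member, *Sema6a*, an unadjusted p under 0.05 in each. It gave no adjusted p to 8 of the 16 members for *Grik1* and to 14 of them for *Chst8* or *Alkal2*.

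**Figure D4:**
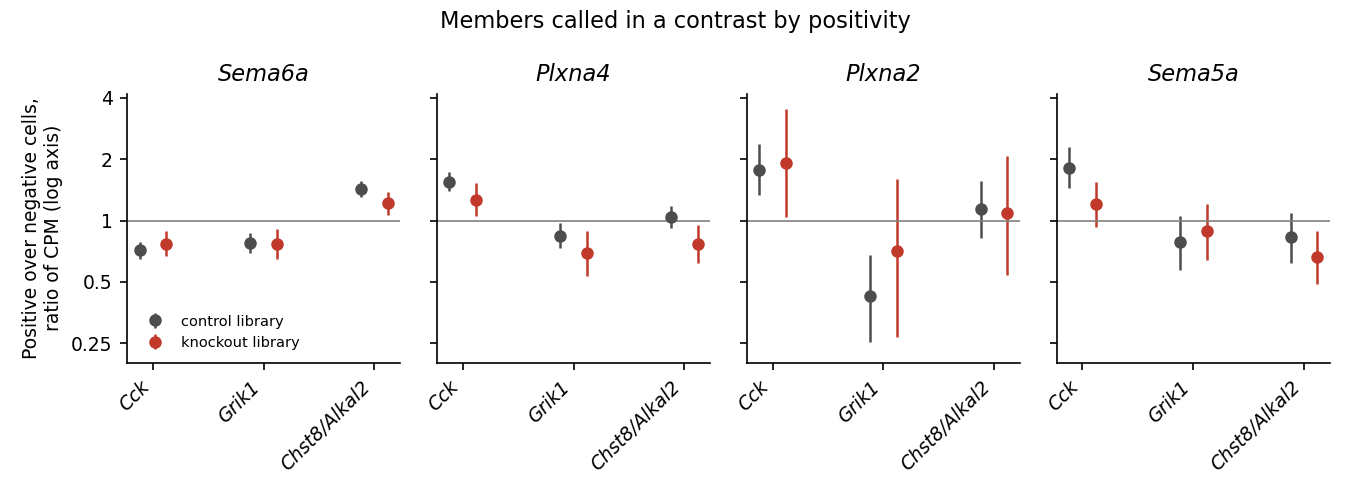
Ratio of CPM in positive over negative cells (log axis) of the 4 members called in a comparison by positivity, for *Cck*, *Grik1* and *Chst8* or *Alkal2*, in the control (grey) and knockout (red) library, with exact 95% intervals that cover counting error only. *Sema6a* lies below 1 for *Cck* and *Grik1* and above 1 for *Chst8* or *Alkal2* in both libraries, and *Plxna4* and *Plxna2* lie above 1 for *Cck*.

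The genotype difference of *Sema5a* was present on both sides of each split. Its ratio of knockout over control was 1.80 (1.37 to 2.34) in *Cck*-positive and 2.71 (2.18 to 3.37) in *Cck*-negative cells. It was 2.47 (1.64 to 3.71) in *Grik1*-positive and 2.19 (1.82 to 2.62) in negative cells, and 1.89 (1.30 to 2.74) and 2.36 (1.960 to 2.84) in *Chst8* or *Alkal2*-positive and negative cells. *Sema6b* had ratios from 1.498 (0.9235 to 2.40) in *Chst8* or *Alkal2*-positive cells to 1.91 (1.42 to 2.56) in the negative ones. Those of *Plxna2* ran from 0.540 (0.3745 to 0.7615) in *Grik1*-negative to 0.899 (0.321 to 2.21) in *Grik1*-positive cells, the last on 7 knockout and 20 control UMIs. The interval also held 1 for *Sema6b* in *Grik1*-positive cells and for *Plxna2* in *Cck*-positive and in *Chst8* or *Alkal2*-positive cells. No test of a difference between these ratios was made. In the 89 control cells rich in respiratory chain RNA, *Sema5a* stood at 21.4 CPM, *Plxna4* at 134 CPM and *Plxna2* at 12.2 CPM, against 50.3, 225 and 33.1 CPM in the other 914. In the 36 such knockout cells *Sema5a* stood at 53.6 CPM, so that its ratio of knockout over control was 2.50 (1.33 to 4.72) within them and 2.24 (1.88 to 2.66) in all other cells. *Plxna4* and *Plxna2* stood at 176 and 13.4 CPM in these 36 cells, against 186 and 18.1 CPM in the other knockout cells. Within cells rich in this RNA their genotype ratios were 1.32 (0.985 to 1.76) and 1.09 (0.337 to 3.15). They were 0.829 (0.741 to 0.925) and 0.548 (0.382 to 0.769) in all other cells.

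The neuropilins were too scarce for the main test. *Nrp2* had 7 UMIs in *Cck*-positive and 32 in negative control cells (3.06 and 7.42 CPM), and 1 and 22 UMIs in the knockout (1.26 and 11.2 CPM). Tested with every gene of at least 1 UMI, its log2 fold change was -1.74 ± 0.54 (edgeR adjusted p = 0.0509). *Nrp1* had 13 UMIs on each side of *Grik1* in the control, which is 9.44 CPM in the fewer positive and 2.49 CPM in the negative cells, and 2 and 7 UMIs in the knockout (3.73 and 3.14 CPM), with an edgeR adjusted p of 0.916.

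Among the 28 other pathway genes with at least 100 UMIs, edgeR called 2 higher and 1 lower in *Cck*-positive cells. Over all 9441 genes tested, 3.66% were called higher and 2.86% lower. *Chl1*, an adhesion partner of Nrp1, was lower (log2 fold change -0.86 ± 0.09, edgeR adjusted p = 6.296e-20). *Mical2* (0.30, adjusted p = 0.0132, edgeR), an actin-oxidizing enzyme, and *Dpysl2* (0.24, adjusted p = 0.0278, edgeR), which carries Sema3a signals to microtubules, were higher. In *Chst8* or *Alkal2*-positive cells 3 were higher and 0 lower, with 1 lower at an unadjusted p under 0.05. Over all genes, 2.45% were called higher and 1.01% lower, and 1175 of 9440 had an unadjusted p under 0.05 (edgeR). The 3 higher were *Chl1* (0.43), the kinase gene *Fyn* (0.42) and *Arhgef12* (0.37), a RhoA exchange factor bound by plexins B, with edgeR adjusted p of 0.000476, 0.00771 and 0.00115. For *Grik1*, 0 were called by edgeR, with 1 higher and 1 lower at an unadjusted p under 0.05. There, 1.03% of all genes were called higher and 0.784% lower, and 860 of 9441 had an unadjusted p under 0.05 (edgeR). *Chl1* and *Sema6a* were thus both lower in *Cck*-positive cells and both higher in *Chst8* or *Alkal2*-positive cells.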

How the data were processed

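Sorted tdT+ hippocampal cells of mice at postnatal day 14 were profiled in 1 control and 1 knockout library. The authors deposited raw UMI counts per gene and barcode for all barcodes, without normalization or cell calling (16336796 and 6777071 UMIs). The methods name Cell Ranger Count with mouse mm10, the submitters' processing notes name Cell Ranger 8.0.1 with mm39, and the matrix header names another version, so the version and build are uncertain. Whether introns were counted, and on which strand, is not given in the sources used here. Genes on the opposite strand overlap 8 members in GENCODE M21 on GRCm38, of which *Plxna4os3* (74 and 20 UMIs) was the most abundant. The matrices hold no column of another sample.

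The members, cells and gene lists were chosen with earlier results of these data known. Cells were barcodes with at least 2000 UMIs and 5 *Reln* UMIs, without a doublet caller. UMIs were summed per library, (Python 3.11.15, scipy 1.17.1, numpy 2.4.6), and CPM scaled to 6601724 control and 2765943 knockout UMIs without genes whose symbols begin with mt-, Mrp, Rpl or Rps. Ratios carry the exact 95% interval of 2 Poisson counts, and a count of 0 was read as at most 3 counts. Between genotypes no test was made, and 1.5-fold was the limit among genes with at least 100 UMIs. Comparisons by positivity used R 4.3.3 with edgeR 4.0.16 (TMM scaling, threshold 0.05) on 4 sums, without the genes that define positivity, and DESeq2 1.42.0 as an alternative. The ratio interval and edgeR were also run on simulated data with 200 changed genes. These counts were drawn from the models that the steps assume, so the runs do not cover spread between mice. Members past the threshold and the 3 largest fold changes each way were named. Free RNA was read in droplets of 20 to 100 UMIs (29040 and 75813), and its subtraction at 5% of UMIs left counts that were not whole. Alternatives are given at the end.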

Additional observations from a re-analysis of the deposited data

Results flagged for a closer look

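*Sema3c*, a secreted class 3 semaphorin, was looked at again because its level was higher outside the cells than in them. In droplets of 20 to 100 UMIs, which hold free RNA, it stood at 20.2 CPM (14.7 to 27.1) for the control library and 45.4 CPM (38.2 to 53.7) for the knockout library, on 44 and 138 UMIs. In the CR cells it stood at 2.27 CPM (1.27 to 3.75) and 5.06 CPM (2.77 to 8.49), on 15 and 14 UMIs with at most 1 UMI in a cell. These intervals do not overlap in either library. At the free RNA of a mean droplet of this range, 1.52 and 0.71 of its UMIs would fall in the control and knockout cells. Fuller droplets were left out, so these estimates may be too low. The source of the free *Sema3c* RNA was not tested. It was the only one of the 31 members for which the droplet interval lay above the cell interval in these libraries.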

How the results depend on the processing

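Of 16 alternatives to the genotype comparison, 14 left the number of members past the limit within 1.5 times of 3. With at least 30 UMIs per gene, and with a limit of 1.25-fold, it was 5. These 2 limits leave the ratio of a gene as it is, and scaling to all UMIs or to the median ratio multiplies every gene alike. *Sema5a*, *Sema6b* and *Plxna2* kept their direction in all 16, with ratios of 1.64 to 2.99, 1.16 to 2.34 and 0.407 to 0.716. The members past the limit were others in some of these: *Sema5a* and *Plxnb2* in thinned cells (10 members compared), *Sema5a* and *Sema6d* in female cells (9 compared) and *Sema5a* and *Plxna1* in knockout cells without an *Etv4* or *Etv5* UMI, so that *Sema6b* and *Plxna2* were not among them. In female cells both had under 100 UMIs and were not compared. For the same reason *Plxna2* was not compared in thinned cells, where its ratio was 0.633. The share of UMIs of the 31 genes in the control and knockout was 0.1336% and 0.1467% without cells rich in respiratory chain RNA, 0.1353% and 0.147% in thinned cells, 0.1194% and 0.1316% of all UMIs, and 0.1301% in the control with free RNA subtracted. It was higher in the knockout under each. For *Cck*, 0 members were called with DESeq2 and 1 in thinned cells, against 4. For *Chst8* or *Alkal2*, 0 were called with either, against 1. DESeq2 gave no adjusted p to 12 of 16 members for *Cck*, 8 for *Grik1* and 14 for *Chst8* or *Alkal2*. For *Grik1*, 0 were called with DESeq2, with edgeR and DESeq2's size factors, from 3000 UMIs, in thinned cells, with free RNA subtracted and with positivity from 2 UMIs, and 2 without cells rich in respiratory chain RNA (*Sema6a* and *Sema6d*), against 1. Adjusted p of the called members ranged from 0.000336 to 0.0378 for *Plxna2*, 1.2e-07 to 0.125 for *Plxna4*, 0.000478 to 0.585 for *Sema5a*, and for *Sema6a* 5.71e-06 to 0.584 (*Cck*), 0.0121 to 1 (*Grik1*) and 0.0001 to 0.166 (*Chst8* or *Alkal2*). These ranges cover 8 alternatives for *Plxna2* and 9 for *Sema5a*, against 10 for *Plxna4* and *Sema6a*. *Plxna2* had no adjusted p with DESeq2 or in thinned cells, so its range is not like the others. *Sema5a* with *Cck* lost its call from 3000 UMIs, from 10 *Reln* UMIs, with free RNA subtracted and in thinned cells. In thinned cells, *Sema6c* with *Cck* was reversed at 0.13 and *Sema4d* with *Grik1* at -0.20. The causes were not tested. A library taken alone gives values and no count of calls. No paired analysis was possible because each genotype has 1 replicate, whereas the comparisons by positivity had library as a term. The 15 members under 100 UMIs were outside the main tests.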
